A study of Homo sapiens with 6 samples.

Results

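The thioredoxin and peroxiredoxin system was followed through 10 genes chosen by name: the cytosolic thioredoxin TXN, the thioredoxin reductases TXNRD1 and TXNRD2, the sulfiredoxin SRXN1 and the peroxiredoxins PRDX1 to PRDX6. All 10 were found among the 19514 gene names of the deposited table, each as a single row, and all 10 were among the 12531 genes that passed the filter on low counts. The cells were of the ARPE-19 line, which derives from human retinal pigment epithelium and is widely used as its model, with the labelled genotype WT. One group received 40 µM tt-DDE, the dienal aldehyde trans,trans-2,4-decadienal that heated or oxidised oils release, and the other the DMSO vehicle, both for 24 h, with 3 libraries of polyadenylated RNA per group. The labels do not say whether the libraries came from separate cultures, so p-values measure the spread between these libraries, which may be technical.

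Thioredoxin is a small protein that reduces disulfides in other proteins and is itself reduced by thioredoxin reductase at the expense of NADPH. Peroxiredoxins are abundant peroxidases: a cysteine attacks hydrogen peroxide or a lipid peroxide, and in most of them thioredoxin then restores the enzyme. When peroxide is in excess that cysteine can be oxidised further and the enzyme is stalled, a state that sulfiredoxin reverses in PRDX1 to PRDX4. TXN, TXNRD1, SRXN1 and PRDX1 are known as targets of the transcription factor NRF2, and the retinal pigment epithelium is a tissue under steady oxidative load.

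Summed over genes, the libraries held 14156421 to 17130543 counts. No library was a repeat of another: within a group, counts of a pair of libraries gave a chi-square of 1.74 to 3.58 for each degree of freedom. Of 10 markers of retinal pigment epithelium, 8 were tested, and the summed level of the list was 824 to 854 CPM (counts scaled to a common library size of 1e+06, with TMM factors) after tt-DDE and 1970 to 2020 CPM in DMSO. Most of that sum came from KRT8, KRT18 and EZR, which other epithelia also express: they averaged 214, 145 and 340 CPM after tt-DDE and 748, 365 and 754 CPM in DMSO. The lineage factors MITF and OTX2 were at 54.3 and 62.9 CPM after tt-DDE and 59.4 and 64.0 CPM in DMSO. BEST1, a chloride channel of the tissue, was at 21.6 CPM after tt-DDE and 0.506 CPM in DMSO. PMEL and RLBP1 were low and went the other way, at 2.32 and 0.555 CPM after tt-DDE and 4.26 and 0.926 CPM in DMSO. TYR had 3 counts after tt-DDE and 0 in DMSO. RPE65, the retinoid isomerase that defines the mature tissue, had 0 counts in all 6 libraries. The pan-leukocyte marker PTPRC had 4 counts after tt-DDE and 6 in DMSO, LYZ 2 and 4, the monocyte marker CD14 84 and 2, and CD3E 0 in both groups. CD68, a lysosomal protein that is not confined to leukocytes, held nearly all of the 99.5 to 116 CPM after tt-DDE and 127 to 131 CPM in DMSO summed over 5 leukocyte markers. Markers of endothelium summed to at most 2.19 CPM and markers of photoreceptors and neurons to at most 1.20 CPM. Markers of keratinocytes summed to 17.0 to 22.2 CPM after tt-DDE and 15.7 to 19.9 CPM in DMSO. KRT10 held nearly all of that sum, with means of 19.7 CPM after tt-DDE and 17.9 CPM in DMSO. KRT5 had 3 counts after tt-DDE and 0 in DMSO, KRT14 0 and 1, TP63 5 and 1, and DSG3 5 and 0. Since the RNA was bulk, fewer cells and less RNA per cell cannot be told apart, and all changes are relative to the other transcripts of a library.

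After tt-DDE the transcript of the repair enzyme SRXN1 was 4.92-fold that in DMSO, the transcript of the main cytosolic reductase TXNRD1 differed by 4.20%, and 5 of 6 peroxiredoxin transcripts fell. PRDX1, the exception among the peroxiredoxins, rose by 14.3%. In the fit over all genes, 2 of the 10 genes were called higher (SRXN1 and PRDX1), 7 lower and 1 (TXNRD1) did not pass an adjusted p of 0.05 (edgeR's quasi-likelihood test, Benjamini-Hochberg adjustment). Over all genes tested 83.3% were called, 41.7% higher and 41.6% lower, so that being called is common here and the size of each change carries more than the call. A rise of at least 2-fold was called in 16.1% of all genes and a fall of at least 2-fold in 16.8%. Of the 10 genes, SRXN1 passed 2-fold and the other 9 did not. The median log2 fold change of the 10 genes, SRXN1 included, was -0.35, against 0.0013 over all genes.

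**Figure D1:**
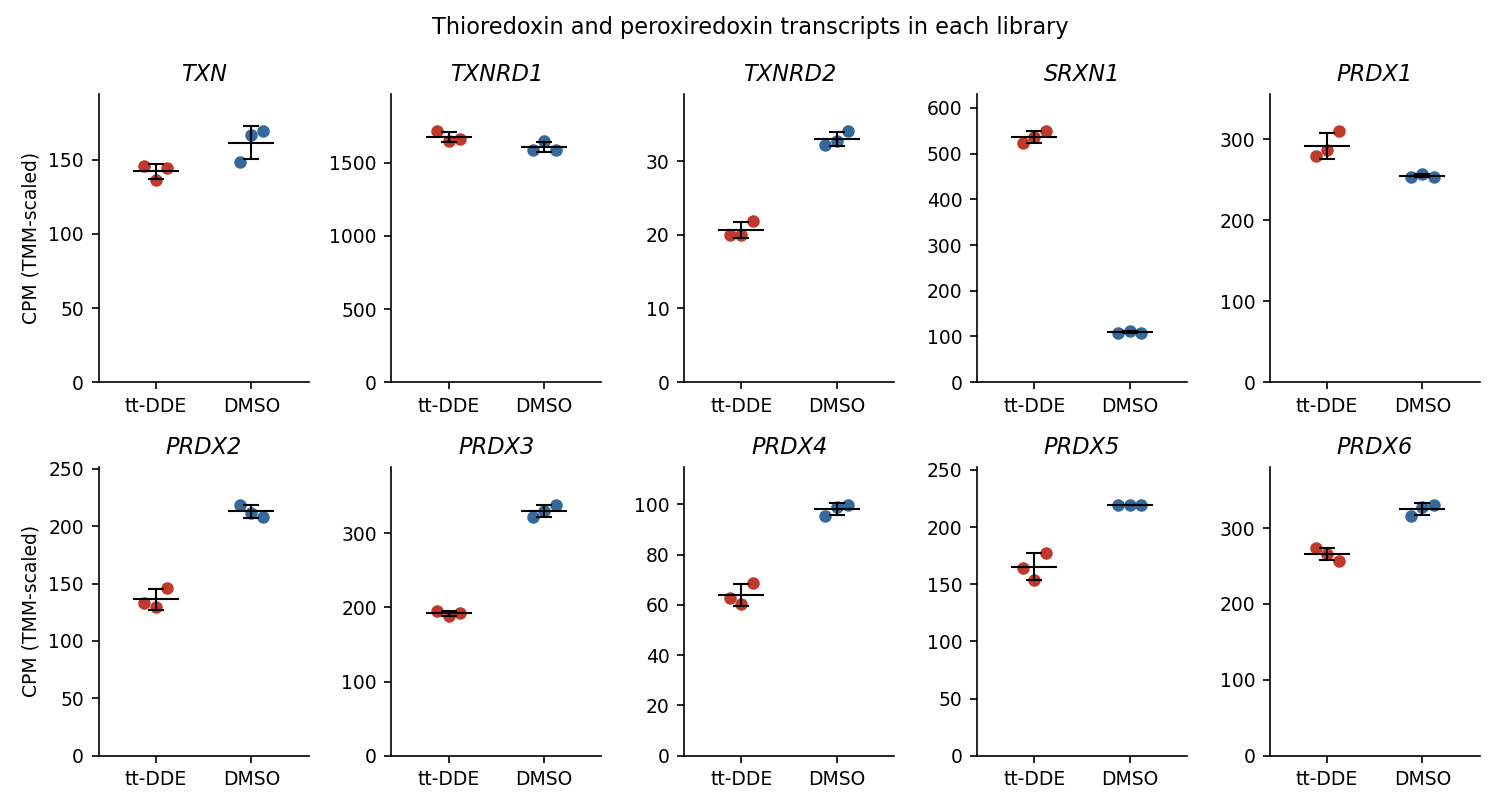
TMM-scaled CPM of each of the 10 genes (y axes from 0) in the 3 tt-DDE libraries (red) and the 3 DMSO libraries (blue); the black bar is the mean and the whiskers 1 SD. SRXN1 lies at 524 to 549 CPM after tt-DDE and 108 to 112 CPM in DMSO, while TXNRD1 stays at 1653 to 1717 and 1590 to 1650 CPM.

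SRXN1, the sulfiredoxin (chromosome 20, 646615 to 653200, GRCh38.p13), had 524, 537 and 549 CPM in the tt-DDE libraries, against 108, 112 and 108 CPM in the DMSO libraries. Every tt-DDE library was several times above every DMSO library, and the libraries of each group lay within a narrow band. The log2 fold change was 2.30 (SE 0.0391), with adjusted p = 5.22e-41 by edgeR's quasi-likelihood test. It ranked 471 of 12531 genes from the top, so that 3.76% of all genes rose at least as much. Per length, SRXN1 moved up the order of the 10 genes: it was at 205 ± 4.45 FPKM (counts per length and library size) after tt-DDE, the third highest, and at 44.5 ± 0.939 FPKM in DMSO, above TXNRD2 alone (SD, n = 3 each).

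TXNRD1, the cytosolic selenoprotein that reduces thioredoxin (chromosome 12, 104215779 to 104350307), had 1717, 1653 and 1663 CPM after tt-DDE, against 1590, 1650 and 1591 CPM in DMSO. The groups just failed to overlap in CPM, and they overlapped in FPKM, where the tt-DDE libraries had 391, 375 and 378 and the DMSO libraries 384, 399 and 387. The log2 fold change was 0.06 (95% interval -0.00678 to 0.126), with adjusted p = 0.0904 by edgeR. This call turned on the scaling and on 1 library: it passed with RLE factors (0.07, adjusted p = 0.0466), with DESeq2 (0.07, adjusted p = 0.0328) and without tt-DDE library 2 (0.07, adjusted p = 0.0388), and with library size alone the sign turned (-0.03, adjusted p = 0.351). Over all alternatives adjusted p was 0.0328 to 0.366. At 381 ± 8.87 FPKM after tt-DDE and 390 ± 8.00 FPKM in DMSO (SD, n = 3 each), TXNRD1 was the most abundant of the 10 transcripts per length in both groups. An absolute log2 fold change no larger than that of TXNRD1 was found in 5.16% of all genes. The small gene EID3 lies within the TXNRD1 locus on the same strand, and its row held 642 counts after tt-DDE and 92 in DMSO, against 79826 and 76673 for TXNRD1.

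The upstream sequences of these 2 genes are shown because SRXN1 had the largest change of the 10 and TXNRD1 the highest level with the smallest change. Sequences are from RefSeq (GRCh38.p14), run 5′ to 3′ on the strand of the gene, and cover 250 bases before a transcript start and the first 10 bases after it. Capitals mark matches to the antioxidant response element core that NRF2 is known to bind, TGACNNNGC, on either strand. The windows are chr20:653191-653450 (minus strand) for SRXN1, chr12:104215529-104215788 (plus strand) for the first TXNRD1 start, where the deposited row begins, and chr12:104286782-104287041 (plus strand) for a second one inside the gene.
SRXN1: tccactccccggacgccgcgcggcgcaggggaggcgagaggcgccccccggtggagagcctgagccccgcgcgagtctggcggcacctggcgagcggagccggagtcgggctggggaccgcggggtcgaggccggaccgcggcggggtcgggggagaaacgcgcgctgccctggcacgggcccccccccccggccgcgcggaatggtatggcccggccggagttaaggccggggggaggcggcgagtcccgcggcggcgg
TXNRD1 first start: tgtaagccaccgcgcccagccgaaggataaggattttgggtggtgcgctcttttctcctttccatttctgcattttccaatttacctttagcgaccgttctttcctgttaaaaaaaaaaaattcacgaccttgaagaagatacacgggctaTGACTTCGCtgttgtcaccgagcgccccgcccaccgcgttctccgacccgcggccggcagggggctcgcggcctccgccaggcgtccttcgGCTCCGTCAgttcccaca
TXNRD1 second start: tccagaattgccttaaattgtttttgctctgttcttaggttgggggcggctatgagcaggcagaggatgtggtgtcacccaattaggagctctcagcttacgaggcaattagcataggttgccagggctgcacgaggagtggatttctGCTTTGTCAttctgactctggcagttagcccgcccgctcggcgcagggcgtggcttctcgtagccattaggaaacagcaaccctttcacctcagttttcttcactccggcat

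The first TXNRD1 window held the core 99 bases upstream of the start (TGACTTCGC) and, as its reverse complement, 8 bases upstream (GCTCCGTCA). The second TXNRD1 window held it as the reverse complement 102 bases upstream (GCTTTGTCA). The SRXN1 window, whose 300 bases in the RefSeq table are 80.0% G and C, had no match. The search used 300 bases per start, of which 50 follow the start, in 12 entries for 8 of the 10 genes: PRDX1 and PRDX6 are named only. No other gene of the 8 had a match, so 2 of the 12 entries held the core, against 13.3% of the 35116 promoters in the table. The amino acid response element TGATGNAA, the endoplasmic reticulum stress element and the heat shock element, searched on both strands, were in none of the 12 entries and in 3.62%, 0.0769% and 0.49% of all promoters. These matches describe letters in a window and say nothing of binding in these cells.

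TXN, the cytosolic thioredoxin (chromosome 9, 110243810 to 110256507), had 146, 136 and 144 CPM after tt-DDE, against 149, 166 and 169 CPM in DMSO. The groups did not overlap, but DMSO library 1 lay close to the tt-DDE libraries. The log2 fold change was -0.18 (SE 0.0453), with adjusted p = 0.000269 by edgeR, and -0.25 without DMSO library 1. TXNRD2, the mitochondrial reductase (chromosome 22, 19875522 to 19941818), had 19.9, 20.03 and 21.9 CPM after tt-DDE, against 32.2, 32.7 and 34.1 CPM in DMSO. All tt-DDE libraries were well below all DMSO libraries, with a log2 fold change of -0.68 (SE 0.0773, adjusted p = 6.77e-11 by edgeR). TXNRD2 was the lowest of the 10 transcripts per length in both groups, at 4.03 ± 0.213 FPKM after tt-DDE and 6.87 ± 0.227 FPKM in DMSO (SD, n = 3 each).

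Among the cytosolic peroxiredoxins, PRDX1 (chromosome 1, 45511051 to 45522890) had 279, 286 and 310 CPM after tt-DDE, against 254, 258 and 254 CPM in DMSO. All tt-DDE libraries were higher, library 3 most, with a log2 fold change of 0.19 (SE 0.0389, adjusted p = 1.72e-05 by edgeR). Its log2 fold change was 0.10 with library size alone (adjusted p = 0.0158, edgeR) and on the log2(FPKM + 1) scale with limma (adjusted p = 0.0396), the highest p over the alternatives. PRDX2 (chromosome 19, 12796823 to 12801800), its close relative and an abundant protein of red cells, had 133, 129 and 146 CPM after tt-DDE, against 219, 212 and 208 CPM in DMSO. The groups were far apart, with a log2 fold change of -0.65 (SE 0.0433, adjusted p = 4.01e-18 by edgeR). These cytosolic relatives thus moved in opposite directions, PRDX1 up and PRDX2 down.

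PRDX6 (chromosome 1, 173477335 to 173488815), a cytosolic enzyme with a single active cysteine that draws on glutathione rather than thioredoxin and also has phospholipase activity, had 274, 266 and 257 CPM after tt-DDE, against 316, 327 and 331 CPM in DMSO. It was lower in every tt-DDE library, by a log2 fold change of -0.29 (SE 0.0372, adjusted p = 1.87e-09 by edgeR).

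Of the peroxiredoxins of other compartments, PRDX3 (chromosome 10, 119167720 to 119178812), the mitochondrial peroxidase served by TXN2 and TXNRD2, had the largest fall of the 10 genes. It had 195, 188 and 193 CPM after tt-DDE, against 323, 330 and 339 CPM in DMSO, with a log2 fold change of -0.78 (SE 0.0376, adjusted p = 2.02e-23 by edgeR). A value at or below it was found in 22.2% of all genes, so the fall was of moderate size for these libraries. PRDX5 (chromosome 11, 64318121 to 64321811), which is found in mitochondria, peroxisomes and cytosol, had 164, 154 and 178 CPM after tt-DDE, against 219, 220 and 220 CPM in DMSO. The DMSO libraries lay almost on each other and the tt-DDE libraries below them, with a log2 fold change of -0.41 (SE 0.0426, adjusted p = 6.34e-12 by edgeR). PRDX4 (chromosome X, 23667493 to 23686397), the peroxiredoxin of the endoplasmic reticulum, had 62.9, 60.4 and 68.8 CPM after tt-DDE, against 95.3, 99.1 and 99.9 CPM in DMSO, with a log2 fold change of -0.62 (SE 0.0523, adjusted p = 1.08e-14 by edgeR). Every tt-DDE library was below every DMSO library for each of these 3 genes. Among all genes tested the groups did not overlap in 83.9%, with tt-DDE above in 42.0% and below in 41.9%.

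Some of these rows share sequence with copies elsewhere. RefSeq lists 7 pseudogenes of TXN, 4 each of PRDX2 and PRDX3, 2 of PRDX4 and 1 each of PRDX1, PRDX5 and SRXN1 by symbol, and no row of the deposited table carries such a symbol, so reads that match several copies could have been assigned either way. PRDX1 overlaps MMACHC and PRDX5 overlaps TRMT112 on the other strand, and whether strand was used in counting is not given in the sources used here. TRMT112 held 5412 counts after tt-DDE and 5637 in DMSO, against 7851 and 10444 for PRDX5, and MMACHC 508 and 833 against 13849 and 12143 for PRDX1.

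**Figure D2:**
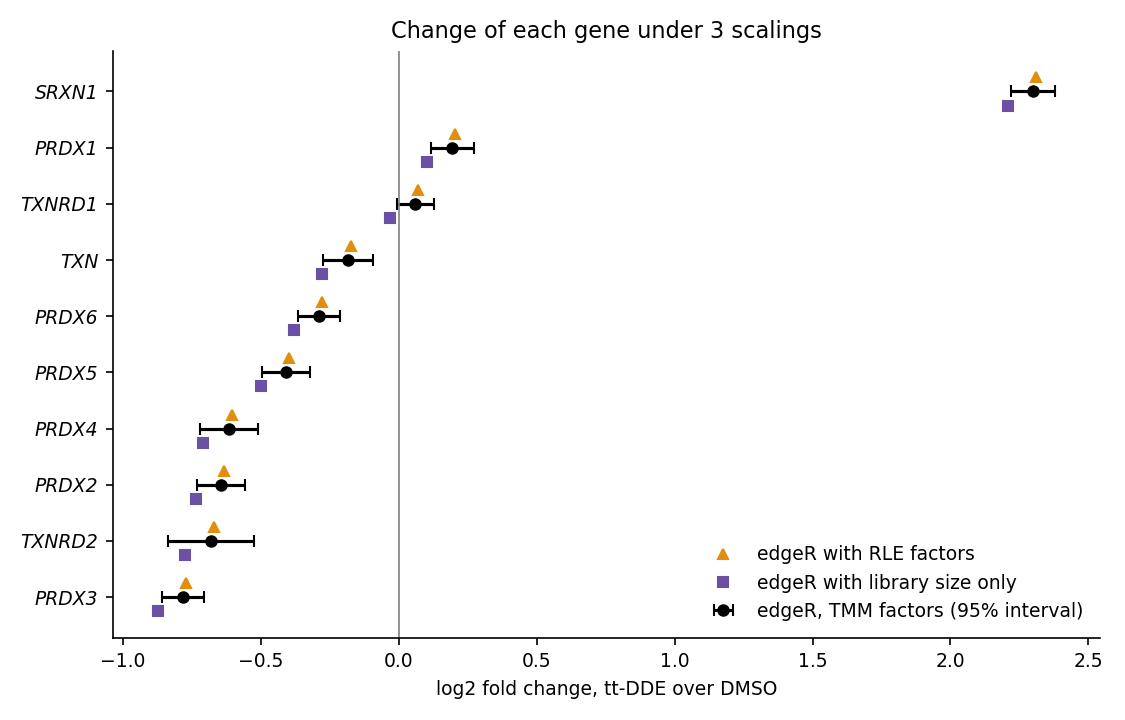
log2 fold change of each of the 10 genes, tt-DDE over DMSO (x axis), with TMM factors (black, whiskers 95% interval), RLE factors (orange) and library size alone (purple). SRXN1 stands at 2.30 and the other 9 genes between -0.78 and 0.19, and TXNRD1 alone changes sign between the scalings.

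Because directions near 0 depend on how libraries are scaled, 8 ratios between genes were taken inside each library, where scaling cancels. With 3 libraries against 3 the smallest two-sided p of the exact permutation test is 0.1, and each ratio reached it, also after Benjamini-Hochberg adjustment over the 8 (p = 0.1, exact), so none can pass 0.05 in this design. SRXN1 over the sum of its substrates PRDX1 to PRDX4, as a log2 ratio of CPM, was -0.35, -0.31 and -0.39 after tt-DDE, against -3.05, -3.01 and -3.07 in DMSO. The difference was 2.69 (SE 0.0291), or 6.46-fold. Per length there were 0.375 ± 0.0117 SRXN1 transcripts for each of those peroxiredoxin transcripts after tt-DDE and 0.0579 ± 0.00120 in DMSO (ratio of FPKM, SD, n = 3 each).

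TXNRD1 and TXN, the cytosolic reductase and thioredoxin, each stood higher relative to the mitochondrial counterpart in all tt-DDE libraries. No ratio of a cytosolic over a mitochondrial peroxiredoxin was taken. TXNRD1 over TXNRD2 was 100, 95.9 and 88.4 after tt-DDE, against 57.4, 58.6 and 54.3 in DMSO as ratios of FPKM, a difference of 0.74 on the log2 scale (SE 0.0626). TXN over TXN2, the mitochondrial thioredoxin, was 7.34 ± 0.520 after tt-DDE and 5.34 ± 0.266 in DMSO (SD, n = 3 each), a log2 difference of 0.46 (SE 0.0717). TXN and TXN2 both fell, TXN2 by more: it was at 41.5 ± 1.86 CPM after tt-DDE and 64.7 ± 1.45 CPM in DMSO (SD, n = 3 each; log2 fold change -0.64, adjusted p = 1.04e-13 by edgeR). TXNRD1 over its substrate TXN was 2.03, 2.10 and 2.00 after tt-DDE, against 1.85, 1.72 and 1.62 in DMSO, the smallest shift of the 8 (log2 difference 0.24, SE 0.0582), and without overlap.

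Between peroxiredoxins, the log2 ratio of PRDX1 over PRDX2 was 1.10 ± 0.0417 after tt-DDE and 0.26 ± 0.0403 in DMSO (SD, n = 3 each), a difference of 0.84 (SE 0.0335). PRDX4 over PRDX1 was at -2.19 ± 0.0510 after tt-DDE and -1.38 ± 0.0345 in DMSO, a difference of -0.81 (SE 0.0356), and PRDX6 over PRDX1 at -0.13 ± 0.124 after tt-DDE and 0.35 ± 0.0341 in DMSO, a difference of -0.48 (SE 0.0744). Inside the pair found in mitochondria, PRDX3 over PRDX5 was at 0.22 ± 0.0893 after tt-DDE and 0.59 ± 0.0335 in DMSO, a difference of -0.37 (SE 0.0551). All tt-DDE libraries lay on the same side of all DMSO libraries in each of the 8 ratios. Such separation is common here: the groups did not overlap in 83.9% of all single genes tested. The share among ratios of other gene pairs was not computed.

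**Figure D3:**
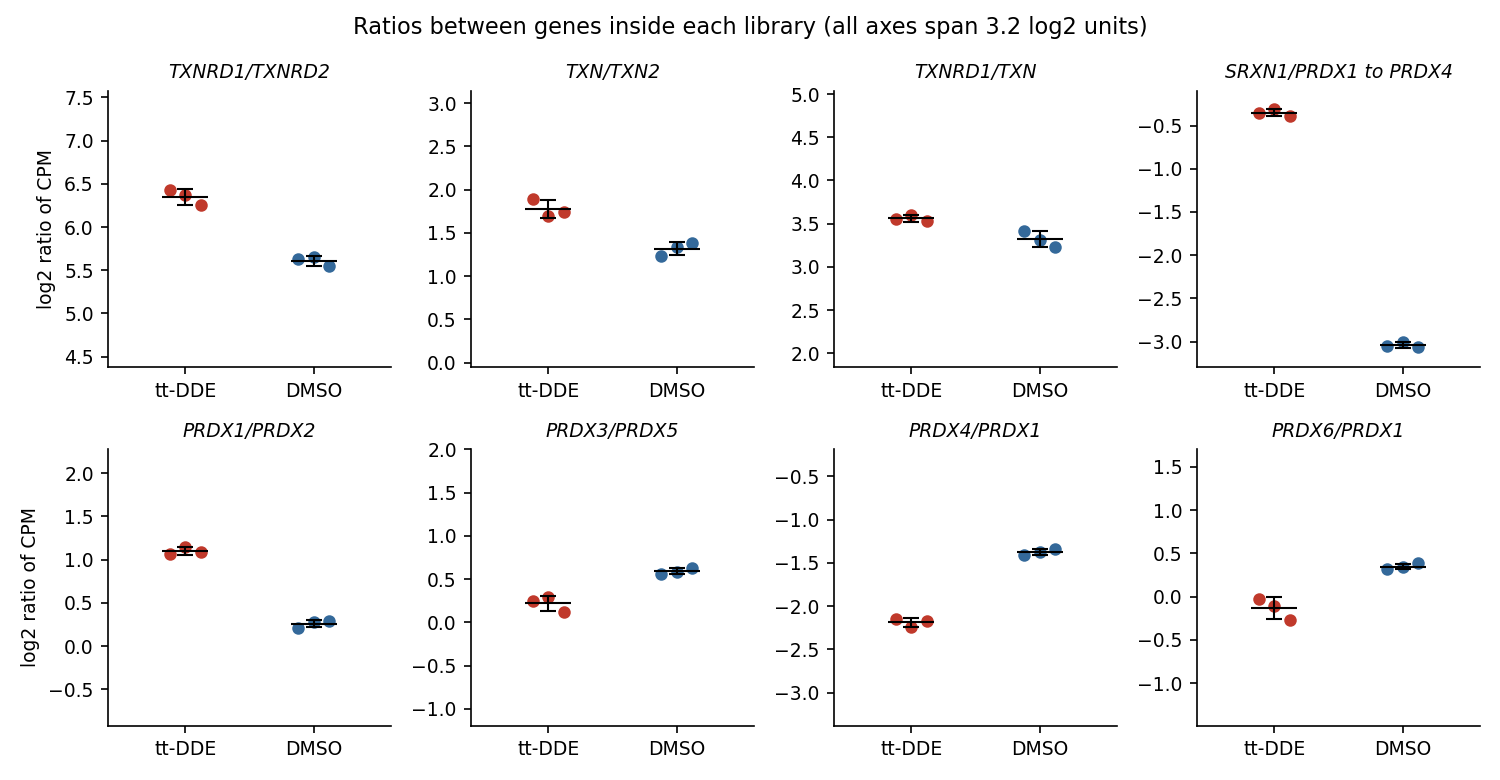
log2 ratio of CPM between genes inside each library (y axes differ in position and all span the same range), tt-DDE in red and DMSO in blue, with the mean and 1 SD in black. The ratio of SRXN1 to the summed PRDX1 to PRDX4 shifts by 2.69 and each of the other 7 by less than 1 log2 unit.

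PRDX1 held a larger share of the peroxiredoxin transcripts in all tt-DDE libraries. As a share of the summed FPKM of PRDX1 to PRDX6, PRDX1 was 24.1%, 25.3% and 25.4% after tt-DDE, against 16.8%, 16.9% and 16.6% in DMSO, and was the largest of the 6 after tt-DDE. PRDX5, the largest in DMSO, was at 21.0% ± 0.700 after tt-DDE and 21.4% ± 0.0995 in DMSO, a difference smaller than the spread between libraries. PRDX3 was at 13.5% ± 0.454 after tt-DDE and 17.8% ± 0.344 in DMSO, PRDX2 at 16.1% ± 0.418 and 19.3% ± 0.603, and PRDX4 at 7.31% ± 0.199 and 8.61% ± 0.165 (SD, n = 3 in each group). PRDX6 was at 17.9%, 17.8% and 15.9% after tt-DDE and 15.8%, 16.2% and 16.4% in DMSO, with groups that overlapped. Shares must add to the whole, so a higher share of 1 gene lowers the others. The summed level of the 6 genes was 1108, 1085 and 1153 CPM after tt-DDE, against 1426, 1445 and 1451 CPM in DMSO, and the mean fell by 22.6%.

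**Figure D4:**
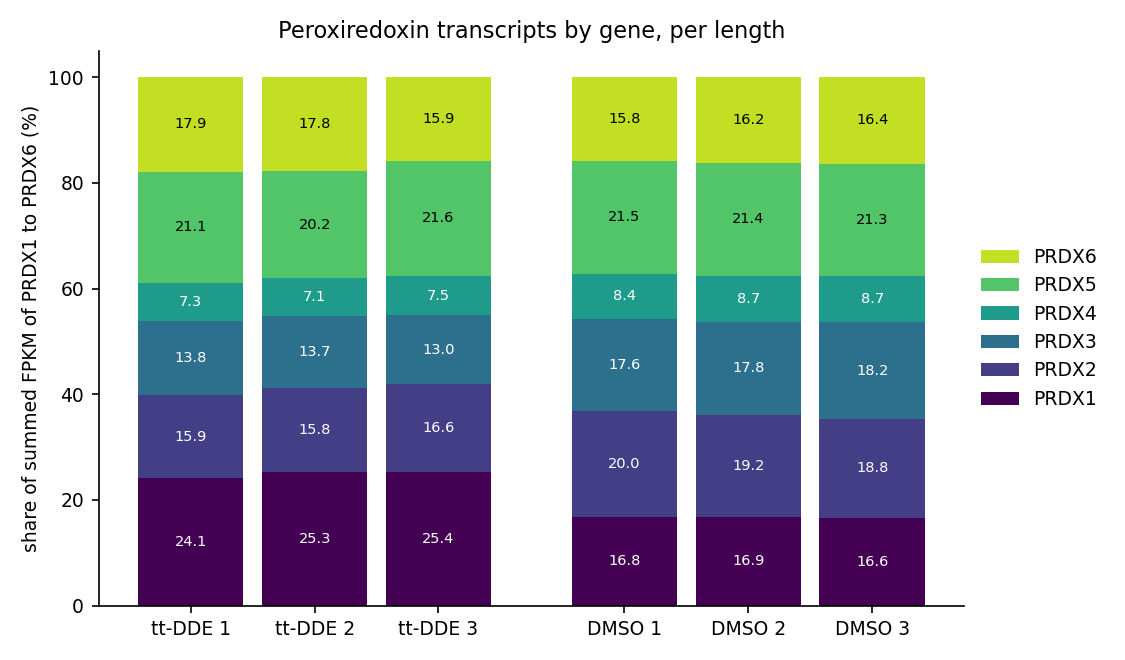
Share of the summed FPKM of PRDX1 to PRDX6 held by each gene (stacked, %), for the 3 tt-DDE libraries on the left and the 3 DMSO libraries on the right. PRDX1 holds 24.1% to 25.4% after tt-DDE and 16.6% to 16.9% in DMSO.

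Per length, the order of the 10 transcripts after tt-DDE was TXNRD1, PRDX1, SRXN1, TXN, PRDX5, PRDX6, PRDX2, PRDX3, PRDX4 and TXNRD2. In this order TXN (187 FPKM) and PRDX5 (186 FPKM) overlapped over their libraries, as did PRDX6 (152 FPKM) and PRDX2 (143 FPKM). In DMSO the order was TXNRD1, PRDX5, PRDX2, TXN, PRDX3, PRDX1, PRDX6, PRDX4, SRXN1 and TXNRD2. There PRDX2 (238 FPKM) overlapped TXN (226 FPKM), and TXN overlapped PRDX3 (220 FPKM). All other neighbours were apart in every library of the group.

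Genes with the most similar pattern were taken for the 2 members with the largest changes, by Euclidean distance of log2 CPM from the DMSO mean over the 6 libraries, among 10307 genes of at least 5 CPM. For SRXN1 these were UNKL (distance 0.0815), GARS1 (0.0878) and SAT1 (0.0984), with log2 fold changes of 2.30, 2.33 and 2.31. For PRDX3 they were CCDC88A (0.0629), CYCS (0.0660) and ITGB1BP1 (0.0685), with log2 fold changes of -0.78, -0.80 and -0.76. With 2 conditions this measure finds mostly genes of the same fold change.

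The genes around the system were described from 9 lists. Across all genes tested 41.7% were called higher and 41.6% lower. A split near these shares is no trait of a list. Of 6 tested thioredoxin relatives and reductase paralogues 1 rose and 4 fell (median log2 fold change -0.45). TXNL1, a thioredoxin-like protein attached to the proteasome, rose to 288 ± 2.88 CPM after tt-DDE, against 107 ± 2.05 CPM in DMSO (SD, n = 3 each; log2 fold change 1.43, adjusted p = 1.72e-32 by edgeR). TXNDC17, a small thioredoxin-like reductase that TXNRD1 serves, fell to 10.4 CPM after tt-DDE, against 38.5 CPM in DMSO (-1.89), and TXNRD3, a reductase best known from testis, to 3.66 CPM, against 12.9 CPM (-1.81). TXNDC17 overlaps MED31 on the other strand, whose row had 228 counts after tt-DDE and 177 in DMSO, against 494 and 1834 for TXNDC17.

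Among proteins that bind thioredoxin, TXNIP, which inhibits it, was at 6.69 ± 1.41 CPM after tt-DDE and 9.08 ± 0.561 CPM in DMSO (SD, n = 3 each) and was called lower (log2 fold change -0.44, SE 0.141, adjusted p = 0.00412 by edgeR). Its arrestin relative ARRDC4 rose (25.3 CPM after tt-DDE and 7.94 CPM in DMSO, 1.67), and 1 of the 3 listed genes did not pass. Sestrins, stress proteins that have been linked to peroxiredoxin repair, moved both ways: SESN2 (3.67) and SESN3 (2.50) rose and SESN1 (-0.85) fell. SESN2 had 488 counts after tt-DDE and 38 in DMSO.

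The glutathione-based counterpart of the system mostly rose, 4 of 5 tested (median 0.54). Of all genes tested, 41.7% were called higher and 41.6% lower. GSR, glutathione reductase and the glutathione counterpart of the thioredoxin reductases, rose to 209 ± 5.72 CPM after tt-DDE, against 79.3 ± 2.41 CPM in DMSO (SD, n = 3 each; log2 fold change 1.40, adjusted p = 1.56e-30 by edgeR). GLRX, the cytosolic glutaredoxin, was at 1.07, and GLRX5, a mitochondrial glutaredoxin of iron-sulfur cluster assembly, fell (-0.61). Ribonucleotide reductase and the methionine sulfoxide reductases are enzymes that take electrons from thioredoxin. Of 7 genes for these enzymes or their subunits, 6 fell and 1 did not pass (median -0.74). RRM2 fell to 35.3 CPM after tt-DDE, against 313 CPM in DMSO (-3.14), and RRM1 to 99.1 CPM, against 454 CPM (-2.20).

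Factors that insert selenocysteine, which the thioredoxin reductases carry, had 1 higher, 3 lower and 2 not past (median -0.20). SEPHS2, which makes the selenium donor and is itself a selenoprotein, rose to 247 CPM after tt-DDE, against 69.4 CPM in DMSO (1.83). TRNAU1AP, a protein associated with the selenocysteine tRNA, fell (-0.83). EEFSEC, the selenocysteine elongation factor, was called lower (-1.77) on 43 counts after tt-DDE and 147 in DMSO, and overlaps RUVBL1 on the other strand, which had a log2 fold change of -1.16.

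PRDX4 works in the endoplasmic reticulum beside disulfide-forming oxidases. Of 9 tested genes listed for the disulfide relay of that compartment, 6 rose and 2 fell (median 0.79). The shares over all genes were 41.7% higher and 41.6% lower. ERO1B, an oxidase that yields hydrogen peroxide, rose to 113 CPM after tt-DDE, against 7.96 CPM in DMSO (3.83; GPR137B, which overlaps it on the other strand, was at 1.12), and PDIA4, a disulfide isomerase, to 1632 CPM, against 216 CPM (2.92). GPX8, a peroxidase of the compartment, fell (-0.51), as PRDX4 did (-0.62). QSOX1, a listed sulfhydryl oxidase that is not confined to the compartment, also fell (-0.68).

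Of 8 genes that supply NADPH 4 rose, 3 fell and 1 did not pass (median 0.08). That split is near the 41.7% higher and 41.6% lower of all genes. The 2 largest rises were of cytosolic enzymes, ME1 (1.24) and IDH1 (0.66), and the 2 largest falls of mitochondrial ones. NNT, the transhydrogenase of the inner membrane, fell to 52.7 ± 0.0476 CPM after tt-DDE, against 172 ± 2.97 CPM in DMSO (SD, n = 3 each; -1.71), and IDH2 to 17.7 CPM, against 48.8 CPM (-1.46). Of 9 NRF2 pathway regulators and other targets 8 rose and 1 fell (median 1.75), from NQO1 at -0.18 to OSGIN1 at 4.00 and HMOX1 at 4.51. SRXN1 (2.30) lay above the list's median, PRDX1 (0.19) and TXNRD1 (0.06, with a sign that turned with library size alone) near the lower end of that range, and TXN (-0.185) just below NQO1 (-0.177).

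**Figure D5:**
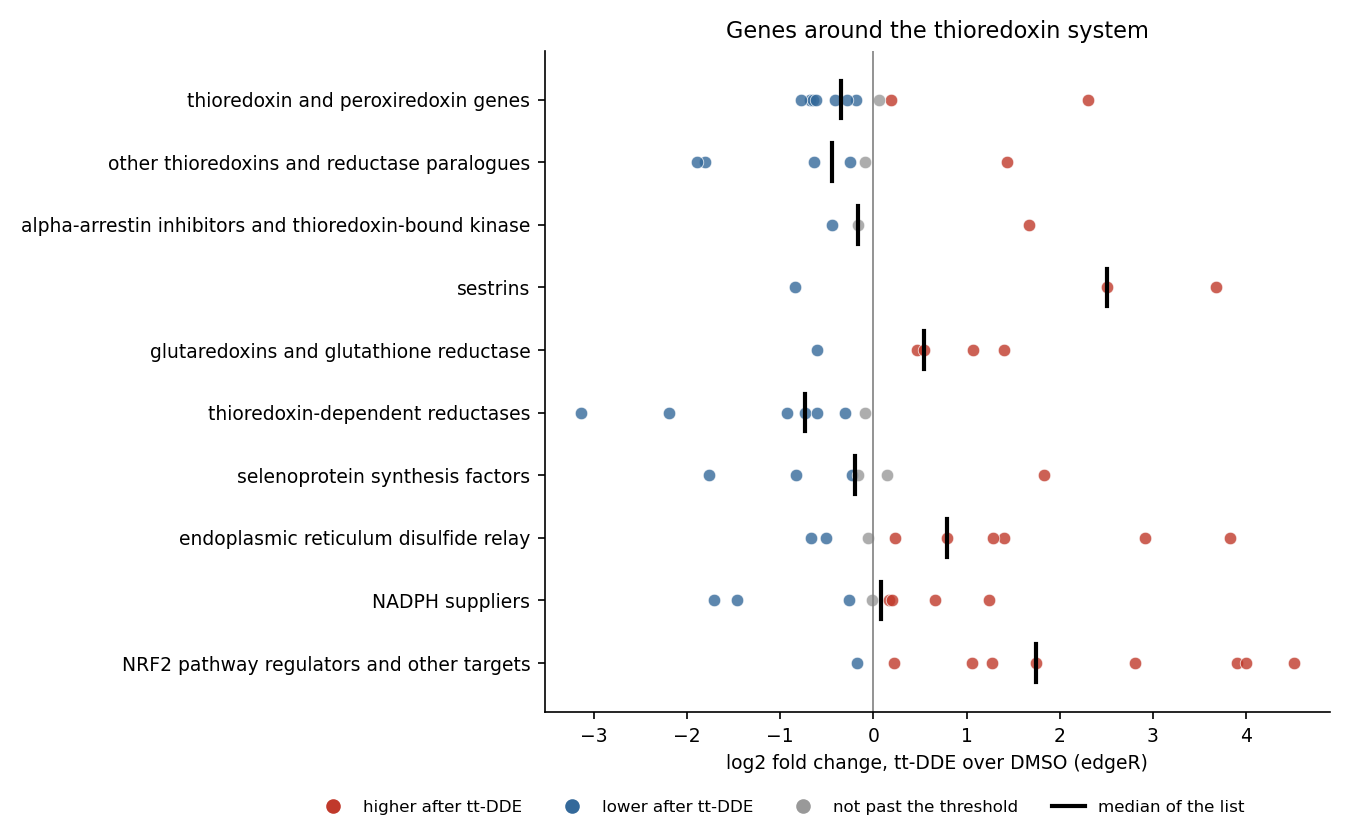
log2 fold change (x axis, tt-DDE over DMSO) of every tested gene in the 10-gene system (top row) and in 9 lists around it, red for called higher, blue for called lower and grey for not past the threshold; the black bar is the median of each list. The thioredoxin and peroxiredoxin genes have a median of -0.35 and the NRF2 list a median of 1.75.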

How the data were processed

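Read counts and FPKM per gene row were deposited by the authors, per the file headers, for 6 libraries; the submitters' processing notes name GRCh38.p13. Aligner, counter and strand setting: not given in the sources used here. Deposited count columns held whole numbers only. The deposited FPKM equalled count per length per column total for all 91254 values above 0 (relative tolerance 1e-06). Rows sharing a name were summed (22312 rows, 19514 names). The test was edgeR's quasi-likelihood F test (version 4.0.16, R 4.3.3) after filterByExpr, with TMM scaling and a model of group alone (two-sided, Benjamini-Hochberg over 12531 genes, threshold 0.05). On simulated counts it recovered 73.5% of 1.25-fold and 93.9% of 2-fold changes. That simulation used a common dispersion and changed few genes. It therefore cannot check the scaling in data where 83.3% of genes are called. SE is the log2 fold change over the root of F. Alternatives used DESeq2 1.42.0 and limma 3.58.1. Ratios were tested with scipy 1.17.1. Same-numbered libraries did not deviate together. The members and lists were chosen with earlier results of these data known. Named genes were the members, TXNIP, TXN2, GSR and, in each list, up to 2 called genes with the largest rise and up to 2 with the largest fall. EID3, MMACHC, TRMT112, MED31, RUVBL1 and GPR137B were named for their overlap. TXNDC2 and MAP3K5 were named because the calls of their lists changed with the setting. Protein sequences were not used here.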

Additional observations from a re-analysis of the deposited data

How the results depend on the processing

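Of 546 values under 16 alternatives, 533 counted as unchanged. For log2 fold changes this meant the same direction and side of the threshold, and for counts a value within 1.5 times. The shares of PRDX2, PRDX3 and PRDX4 taken from CPM kept their direction but were counted as changed. Ratios were unable to change side, as their exact test cannot reach 0.05. TXNRD1 was the only gene of the 10 whose call or sign changed: its log2 fold change was -0.03 with library size alone (-0.0326) and in limma on log2(FPKM + 1) (-0.0329) or log2(FPKM + 0.1) (-0.0330), and it passed at 0.0698 with DESeq2, 0.0697 with RLE factors and at the upper end of the values with a library left out, 0.0424 to 0.0704. The scaling itself shifted the median of all genes by -0.09 with library size alone. Without a filter on low counts 2 thioredoxin relatives were called higher. TXNDC2, a gene of that list left out by the filter, had 12 counts after tt-DDE and 0 in DMSO. With library size alone or limma 2 of the arrestin and kinase list were called lower. MAP3K5, the gene of that list not past in the main fit, was at -0.17 there (adjusted p = 0.113 by edgeR). The cause was not tested. As shares of CPM in place of FPKM, which weights long transcripts more, PRDX2, PRDX3 and PRDX4 differed by -2.58, -5.70 and -1.07 percentage points. The difference for PRDX5, -0.418 points, ranged from -0.741 to -0.0459 with a library left out. No pairing by library number was detected. Same-numbered libraries had correlations of -0.0199, 0.0106 and -0.00868 in their deviations from the group mean over 10310 genes. These values cannot show whether same-numbered libraries were handled together. With a replicate block 5192 genes were called higher and 5179 lower, against 5223 and 5210 without it, 2 and 7 of the 10 members were called as before, and the log2 fold change of SRXN1 was 2.30.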

Other observations

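Within the tt-DDE group, library 3 had the highest CPM of PRDX1, PRDX2, PRDX4, PRDX5, TXNRD2 and SRXN1 and the lowest of PRDX6 (310, 146, 68.8, 178, 21.9 and 549 CPM, and 257 CPM). In that order the deposited lengths of the 6 genes are 1278, 925, 956, 860, 4953 and 2528 bases, and that of PRDX6 is 1690 bases, so the genes highest in library 3 include both short ones and the longest of the 10, TXNRD2. TXN, at 737 bases the shortest, was highest in library 1 (146 CPM). Without library 3 the log2 fold changes of PRDX1, PRDX2, PRDX4 and PRDX5 were 0.15, -0.70, -0.67 and -0.46. The part of transcript length in this was not tested.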
